A study of Mus musculus with 20 samples.

Results

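The distal nephron and the collecting duct of the mouse kidney are described here through 35 genes, found by symbol among the 54532 genes of the count table. They comprise 7 genes of the thick ascending limb, 7 of the distal convoluted and connecting tubule, 3 of the WNK pathway, 3 of basolateral potassium and chloride channels, 8 of principal cells and 7 of intercalated cells. The series holds 20 RNA-seq libraries of male mice on the C57BL/6 background, in 4 groups of 5: wild-type kidney, Lxrα-/- kidney, wild-type liver and Lxrα-/- liver. Lxrα is an oxysterol-activated nuclear receptor and the product of Nr1h3, known for its control of cholesterol export and lipid synthesis. Wild-type mice carry the numbers 1, 3, 4, 5 and 6 in the titles and Lxrα-/- mice the numbers 1 to 5. A kidney and a liver with the same genotype and number were treated as coming from 1 mouse only in alternative fits. The main fits across tissues took all libraries as independent. Strain and sex are shared by all groups, and the labels name no treatment. The age of the mice, their diet and the part of the gene that was deleted are not given in the sources used here.

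The targeted gene does not check the labels in these counts. Nr1h3 had more counts in Lxrα-/- than in wild-type libraries, with a log2 fold change of 0.76 (SE 0.12, edgeR adjusted p = 0.00277) in liver and an edgeR adjusted p of 0.00209 in kidney. A count summed over a whole gene cannot show which of its exons the reads came from. Each direction below follows the genotype as labelled, with KO standing for Lxrα-/- and WT for wild type.

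Urine leaves the loop of Henle through the thick ascending limb, which takes up sodium chloride without water. The distal convoluted tubule then takes up more sodium chloride through the thiazide-sensitive cotransporter, whose activity the WNK kinases set. In the collecting duct, principal cells take up sodium through the epithelial sodium channel and water under vasopressin, and intercalated cells move acid and base. These segments make up a small part of whole kidney RNA, in which the proximal tubule dominates. In bulk tissue, fewer cells of a type and less RNA per cell cannot be told apart.

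Libraries held 23421561 to 35376342 counts. The 35 genes took 0.499% to 1.24% of the counts in kidney and 0.0120% to 0.0169% in liver. Mitochondrially encoded genes took 50.8% of the counts of WT kidney 3 and 7.21% of those of WT kidney 1, against 12.6% to 21.1% in the other 8 kidneys. TMM scaling factors of WT kidneys ran from 0.795 to 1.30 and those of KO kidneys from 0.925 to 1.02. WT kidneys 1 and 3 also stand apart in the genes described here, so results of the 35 genes that rest on them are given with and without them. KO kidney 1 stands apart as well. Median absolute log2 deviations from the median kidney were 0.65 in WT kidney 3, 0.44 in KO kidney 1 and 0.38 in WT kidney 1. Only some results are also given without KO kidney 1.

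The genes were listed as genes of nephron segments, so higher levels in WT kidney than in WT liver were built into the choice. In the liver libraries alone, 24 of them had too few counts to be tested. Of the 34 that could be tested between WT tissues, 33 were higher in kidney at an adjusted p under 0.05. This was edgeR's quasi-likelihood test (Benjamini-Hochberg). Of all 16645 tested genes 29.6% were higher in kidney, but these were not chosen by segment, so the comparison does not test the list. Slc12a1, the sodium-potassium-chloride cotransporter of the thick ascending limb, had 121087 counts over the 5 WT kidneys and 0 in all 10 livers. Against a floor of 3 counts over the 5 WT livers it was at least 40372-fold higher in kidney. In all, 9 genes had 0 counts in every WT liver, with bounds from at least 532-fold (Cldn16) upward, and 18 had 10 or fewer counts summed over the 10 livers. The smallest difference that passed was that of Sgk1, the serum- and glucocorticoid-induced kinase, at a log2 of 1.32 (SE 0.27).

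Scnn1a, the alpha subunit of the epithelial sodium channel, was the gene that did not pass. Its log2 difference was 0.46 (SE 0.30, edgeR adjusted p = 0.218), at 26.4 to 47.6 CPM (counts per gene relative to the scaled total of the library) in WT liver and 34.4 to 126 CPM in WT kidney, each on its own tissue's scale. Without WT kidneys 1 and 3 the difference was -0.02, and without WT kidney 6 it was 0.66 (adjusted p = 0.0273). TMM scaling matters between tissues: with library size alone the median of all genes moved from 0.05 to 0.69, and Scnn1a stood at 1.11 (adjusted p = 0.00929). The beta and gamma subunits, Scnn1b and Scnn1g, had 0 counts in all WT livers.

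Levels within WT kidney spanned a wide range. Per kilobase of gene length, and as mean CPM over 5 WT kidneys, Umod stood at 501 CPM per kb. Umod encodes uromodulin, the main protein of normal urine, and its libraries ran from 122 to 906. Next came Slc12a1 at 149 (82.6 to 274), Slc12a3 at 89.2 (50.3 to 143), Calb1 at 85.6 (31.9 to 126) and Egf at 84.4 (62.2 to 133). These ranges overlap from each gene to the next, so their order is not fixed by 5 libraries. At the low end Trpm6, a magnesium channel, stood at 2.45 CPM per kb (1.84 to 3.75). Avpr2, the vasopressin receptor, had 2 to 35 counts per kidney and did not pass the filter on low counts. Its span also lies within those of L1cam and Arhgap4 on the other strand, and strand use in counting is not given in the sources used here.

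Between genotypes in kidney, 0 of the 34 tested genes passed an adjusted p under 0.05 in edgeR's quasi-likelihood test, where 2.26% of all 16500 tested genes did. At an unadjusted p under 0.05 there were 5, all with lower levels in KO (Slc12a1, Wnk1, Hsd11b2, Atp6v1b1 and Cldn19), where 19.8% of all genes had such a p. DESeq2 called 1, Slc12a1. Of the 34 log2 fold changes 29 were negative and 5 positive, which is 85.3% negative against 56.2% of all tested genes. Their median was -0.25, beside -0.07 over all tested genes. Without WT kidneys 1 and 3, 0 passed, 24 were negative and the median was -0.20. Leaving out KO kidney 1 alone, 0 passed, 23 were negative and the median was -0.14. In 3 genes every KO kidney lay below every WT kidney (Slc12a1, Scnn1b and Atp6v1b1), a pattern that 4.13% of all tested genes had.

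**Figure D1:**
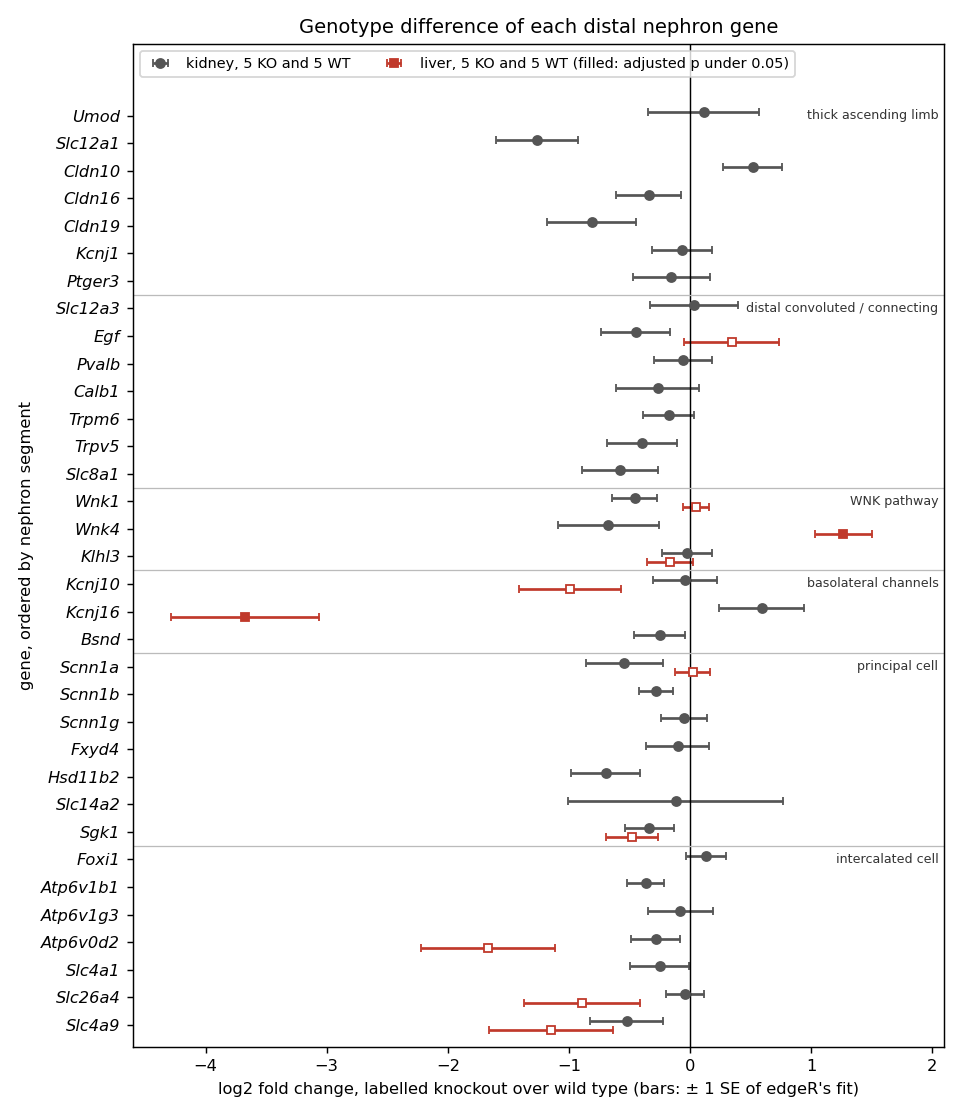
Log2 fold change of KO over WT (x axis) for each tested gene (y axis, by segment), with bars of 1 SE from edgeR's fit, in kidney (grey circles, 34 genes) and in liver where the gene passed the filter (red squares, 11 genes, filled where the adjusted p was under 0.05). Most kidney points lie left of 0 within about 1 SE or 2 SE of it, with Slc12a1 farthest at -1.26, while Wnk4 and Kcnj16 are the filled liver squares at 1.27 and -3.67.

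Slc12a1 (ENSMUSG00000027202, mm10 chr2:125152505-125230002, plus strand) had the smallest p among the 34. Its levels were 225, 462, 404, 389 and 302 CPM in KO kidneys 1 to 5. In WT kidneys 1, 3, 4, 5 and 6 they were 1001, 1581, 739.6, 476 and 482 CPM. All KO values lay below all WT values, but WT kidneys 5 and 6 stood just above KO kidney 2, and the distance between genotypes came largely from WT kidneys 1, 3 and 4. The log2 fold change was -1.26 (SE 0.34, unadjusted p = 0.00258, edgeR adjusted p = 0.0715). It passed in 3 of 17 alternative settings, among them DESeq2 (-1.21, adjusted p = 0.00700) and edgeR without WT kidney 6 (-1.41, adjusted p = 0.0336). In edgeR it was -1.13 (adjusted p = 0.171) without KO kidney 1 and -0.67 (adjusted p = 0.107) without WT kidneys 1 and 3.

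The other genes of the thick ascending limb had values on both sides of 0, and 0 of the 6 passed. Umod ran from 550.2 to 2381 CPM in KO and from 336 to 2504 CPM in WT, with a log2 fold change of 0.11 (SE 0.46). WT kidney 3, where Slc12a1 was highest of the 10 kidneys, was the kidney where Umod was lowest. Cldn19, a claudin that with Cldn16 forms the path for calcium and magnesium between cells, stood at -0.81 (SE 0.37, edgeR adjusted p = 0.239), at 10.5 to 35.7 CPM in KO and 19.9 to 75.5 CPM in WT. Its 2 highest kidneys were WT kidneys 1 and 3, and without them the value was -0.22 (SE 0.31, adjusted p = 0.730). Cldn16 itself stood at -0.34 (SE 0.27). Cldn10, which forms the path for sodium in this segment, had a positive value of 0.52 (SE 0.24, edgeR adjusted p = 0.260). Counts per gene do not tell its transcripts apart. Its KO kidneys lay between 182 and 221 CPM and its WT kidneys between 67.6 and 209 CPM, the lowest being WT kidney 3, and without WT kidneys 1 and 3 it stood at 0.31. Kcnj1, the potassium channel that returns potassium to the lumen, and Ptger3, a prostaglandin receptor, differed by -0.07 (SE 0.25) and -0.16 (SE 0.32). KO kidney 1 was the lowest of the 10 kidneys for Slc12a1, Cldn16, Cldn19, Kcnj1 and Ptger3. Leaving out KO kidney 1 alone, Kcnj1 stood at 0.085 and Ptger3 at 0.022.

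**Figure D2:**
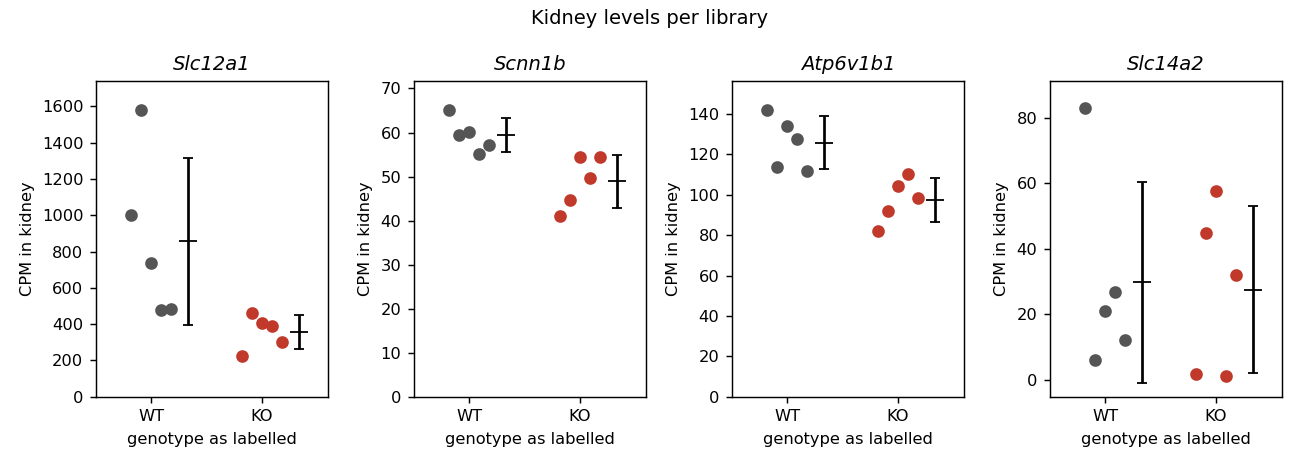
CPM per kidney library (y axis, from 0 or just below it) in WT and KO (x axis) for the 3 genes whose genotypes did not overlap and for Slc14a2, with the mean and SD of 5 libraries as black marks. Slc12a1 shows WT kidneys 1 and 3 at 1001 and 1581 CPM and WT kidneys 5 and 6 close to the KO values, the Scnn1b and Atp6v1b1 groups nearly touch, and Slc14a2 spans from 1.09 to 83.0 CPM with both genotypes mixed.

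In the distal convoluted tubule, Slc12a3, the thiazide-sensitive cotransporter, ran from 561 to 1374 CPM in KO and from 559 to 1595 CPM in WT. Its log2 fold change was 0.03 (SE 0.36). Within WT it split into 1595 and 1594 CPM in kidneys 1 and 3 against 559 to 618 CPM in kidneys 4, 5 and 6. Against the latter 3 alone, the log2 fold change was 0.78 (SE 0.23, edgeR adjusted p = 0.0791), so the value near 0 rested on WT kidneys 1 and 3. Egf, the precursor of epidermal growth factor, differed by -0.45 (SE 0.28), and Pvalb, a calcium-binding protein of the early segment, by -0.06 (SE 0.24). Trpm6 differed by -0.18 (SE 0.21) in kidney. Of the genes, 3 carry calcium across the connecting tubule cell: Trpv5, the channel of entry, differed by -0.40 (SE 0.29), Calb1, the carrier in the cytosol, by -0.27 (SE 0.34), and Slc8a1, a sodium-calcium exchanger, by -0.58 (SE 0.31). The lowest edgeR adjusted p of these 7 genes was 0.316, for Slc8a1. Without WT kidneys 1 and 3, Trpv5 stood at -0.68 (SE 0.25) and Calb1 at -0.67 (SE 0.21), and Trpm6 turned to 0.12, with 0 of the 7 passing.

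The WNK pathway had 3 genes in the list. Wnk1, a kinase upstream of the cotransporters, stood at 251, 244, 238, 299 and 211 CPM in KO kidneys 1 to 5 and at 341, 459.5, 297, 303 and 307 CPM in WT kidneys 1, 3, 4, 5 and 6. KO kidney 4 lay just above WT kidney 4, the lowest WT kidney, and below all other WT kidneys. The log2 fold change was -0.46 (SE 0.19, unadjusted p = 0.0288, edgeR adjusted p = 0.203). Wnk4, the kinase most tied to the distal convoluted tubule, stood at 126, 102, 111, 89.8 and 75.8 CPM in KO and at 243, 329, 104, 75.7 and 54.3 CPM in WT. Its difference of -0.67 (SE 0.42, edgeR adjusted p = 0.367) rested on WT kidneys 1 and 3, without which it was 0.37. Klhl3, the adaptor that marks WNK kinases for breakdown, differed by -0.03 (SE 0.21), and by 0.30 without those 2 kidneys.

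Among the basolateral channels, Kcnj10 and Kcnj16 encode subunits of the potassium channel that sets the membrane voltage of the distal convoluted tubule, and Bsnd encodes barttin, the subunit of the chloride channels. Kcnj16 stood at 634, 372, 393, 512 and 420.2 CPM in KO kidneys 1 to 5 and at 289.7, 90.9, 345, 295 and 528 CPM in WT kidneys 1, 3, 4, 5 and 6. Its log2 fold change was 0.59 (SE 0.35, edgeR adjusted p = 0.353), the highest of the 34, and the genotypes overlapped through WT kidney 6. Kcnj10 differed by -0.04 (SE 0.27) and Bsnd by -0.25 (SE 0.21). Without WT kidneys 1 and 3, the values were 0.26 for Kcnj16, -0.19 for Kcnj10 and -0.032 for Bsnd. WT kidney 3 was the lowest of 10 for both subunits, while KO kidney 1 was the second lowest for Kcnj10 and the highest for Kcnj16.

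All 7 tested genes of principal cells had negative values, with a median of -0.28, where 56.2% of all tested genes were negative. Without WT kidneys 1 and 3 this held for 5 of the 7, with Fxyd4 at 0.063 and Slc14a2 at 0.45. Single kidneys also moved the signs. Leaving out KO kidney 1 alone, Scnn1g stood at 0.027, Fxyd4 at 0.047 and Slc14a2 at 0.18. Leaving out WT kidney 1 alone, the same genes stood at 0.044, 0.087 and 0.75. Scnn1b stood at 41.1, 44.7, 54.5, 49.6 and 54.5 CPM in KO kidneys 1 to 5 and at 65.2, 59.4, 60.2, 55.2 and 57.1 CPM in WT kidneys 1, 3, 4, 5 and 6. The groups did not overlap but nearly met, and the log2 fold change was -0.28 (SE 0.14, edgeR adjusted p = 0.281). Scnn1b shares 39152 bases of its span with Cog7 on the other strand, so its reads may hold some of that gene. Scnn1a differed by -0.54 (SE 0.31) and Scnn1g by -0.05 (SE 0.19), and without WT kidneys 1 and 3 these values were -0.056 and -0.13. Whether the subunits differ from each other was not tested. Hsd11b2, the enzyme that keeps glucocorticoids off the mineralocorticoid receptor, stood at 55.3, 60.6, 64.9, 58.5 and 103 CPM in KO and at 157, 87.6, 151, 107 and 51.9 CPM in WT. It differed by -0.70 (SE 0.28, unadjusted p = 0.0289, edgeR adjusted p = 0.203), with KO kidney 5 within the WT range and WT kidney 6 below all KO kidneys. Sgk1, induced by aldosterone, differed by -0.34 (SE 0.20), and Fxyd4, a regulator of the sodium pump in the collecting duct, by -0.10 (SE 0.26).

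Slc14a2, the urea transporter of the inner medullary collecting duct, varied most of the 34 genes between kidneys. It stood at 1.92, 45.0, 57.7, 1.09 and 32.0 CPM in KO kidneys 1 to 5 and at 83.0, 6.03, 21.0, 26.7 and 12.4 CPM in WT kidneys 1, 3, 4, 5 and 6. The highest kidney was 76.0-fold above the lowest, and both genotypes held high and low kidneys. The log2 fold change was -0.12 with an SE of 0.89, the largest of the 34.

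Of intercalated cell genes, Atp6v1b1, a proton pump subunit, stood at 82.1, 92.0, 105, 111 and 98.3 CPM in KO kidneys 1 to 5 and at 142, 114, 134, 128 and 112 CPM in WT kidneys 1, 3, 4, 5 and 6. The groups were separated by about 1 CPM, and the log2 fold change was -0.37 (SE 0.15, unadjusted p = 0.0301, edgeR adjusted p = 0.208). The other pump subunits differed by -0.08 (SE 0.27) for Atp6v1g3 and -0.28 (SE 0.20) for Atp6v0d2. Foxi1, the transcription factor that specifies intercalated cells, differed by 0.13 (SE 0.17). Slc26a4, the chloride-bicarbonate exchanger pendrin, differed by -0.04 (SE 0.16) and was the steadiest of the 34 genes, at 68.0 to 105 CPM over the 10 kidneys. Slc4a1, the anion exchanger of acid-secreting cells and of red blood cells, differed by -0.25 (SE 0.24), with summed red blood cell markers at 105 to 233 CPM in KO and 144 to 476 CPM in WT. Slc4a9, an anion exchanger of base-secreting cells, differed by -0.52 (SE 0.30), and without its high value of 385 CPM in WT kidney 3 its 9 other kidneys lay between 98.9 and 148 CPM.

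With WT kidneys 1 and 3 left out, 27 of the 34 kidney values moved by over 1.5 times or changed sign, and the lowest edgeR adjusted p was 0.0746, for Atp6v0d2 at -0.52 (SE 0.15). Atp6v1g3 then stood at -0.45 (SE 0.14) and Sgk1 at -0.54 (SE 0.16), farther from 0 than with all 10 kidneys. Slc4a9 stood at -0.031, Ptger3 at -0.030, Foxi1 at 0.041, and Slc26a4, Kcnj1, Pvalb, Wnk1 and Egf at -0.11, -0.23, -0.33, -0.28 and -0.27. Scnn1b and Atp6v1b1 changed little, at -0.24 (SE 0.12) and -0.35 (SE 0.12).

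Other genes of the same segments gave a like picture. Of 44 such genes 43 were tested, and 0 of 7 in the thick ascending limb, 0 of 12 in the distal and connecting tubule, 0 of 10 in principal cells and 0 of 14 in intercalated cells passed edgeR's adjusted p. Their medians were -0.31, -0.12, -0.18 and -0.34, beside -0.07 over all tested genes. At an unadjusted edgeR p under 0.05 there were 1, 2, 1 and 2 genes, all lower in KO. Of all tested genes, 19.8% had such a p in either direction.

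Other cell types were measured beside these genes through marker lists. Of 12 proximal tubule genes 11 had positive values (median 0.32) and 1 rose in KO: Slc22a6, an organic anion transporter, by 1.11 (SE 0.24, edgeR adjusted p = 0.0332). Summed proximal markers stood at 11699 to 14634 CPM in KO and 9969 to 11612 CPM in WT, with no overlap. Of 8 endothelial genes all had negative values (median -0.70) and 1 fell: Cdh5, a junction protein, by 1.08 (SE 0.25, edgeR adjusted p = 0.0402), with sums of 118 to 299 CPM in KO and 317 to 363 CPM in WT. All 6 glomerular genes (median -0.80) and all 8 macrophage genes (median -0.54) had negative values, and 0 of either list passed. Of 5 genes of the osmotic response of the medulla 0 passed (median 0.25), with sums of 320.2 to 444 CPM in KO and 232 to 525 CPM in WT. Of 6 tubule injury genes and of 5 tested hepatocyte genes 0 passed either. Hepatocyte sums stood at 1377 to 3253 CPM in KO kidney and 194 to 1183 CPM in WT kidney. Neither these nor the endothelial sums overlapped between genotypes. At an unadjusted edgeR p under 0.05, 6 endothelial, 4 glomerular, 3 macrophage and 1 osmotic gene were lower in KO. Higher in KO were 2 hepatocyte genes and 1 proximal gene. Of all tested genes, 19.8% had such a p in either direction. Over all tested genes in kidney, 2.26% passed and 56.2% had negative values. No values without WT kidneys 1 and 3 are given for these lists. The part of these differences in the values of the distal genes was not tested.

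Kidneys differed among themselves in the distal genes. The SD of log2(CPM + 0.5) over the 10 kidneys had a median of 0.48 for the 34 genes and of 0.39 for all tested genes, and ran from 0.19 (Slc26a4) to 1.93 (Slc14a2). WT kidneys 1 and 3 each had 8 of the 34 genes more than 1 log2 unit from the median kidney. KO kidney 1 had 6, all below it, and each other kidney had 0 or 1. WT kidney 1 was high in 6 of its 8, and WT kidney 3 was low in 5 of its 8.

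**Figure D3:**
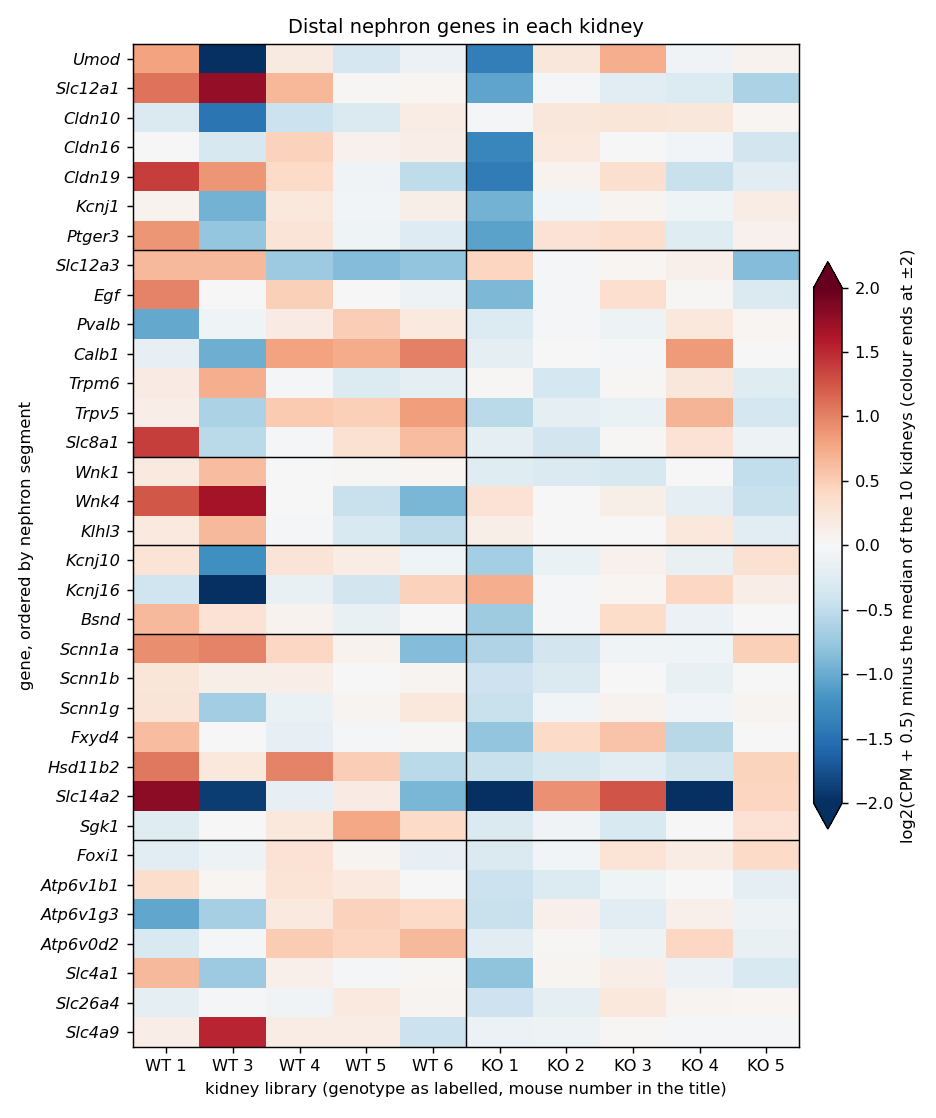
Log2 deviation of each gene (rows, by segment) in each kidney (columns, WT left and KO right) from the median of the 10 kidneys, red above and blue below, with colours ending at 2 units either way. WT kidneys 1 and 3 and KO kidney 1 hold most of the strong colours, WT kidney 3 in both directions and KO kidney 1 mainly in blue, and the row of Slc14a2 is strongly coloured in both genotypes.

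Some genes shared their high and low kidneys across genotypes. Calb1 stood at 508 to 610 CPM in WT kidneys 4, 5 and 6 and at 547 CPM in KO kidney 4, and at 155 to 305 CPM in the other 6. The same 4 kidneys were the highest for Trpv5, at 18.3 to 23.8 CPM against 8.23 to 14.3 CPM in the rest. Fxyd4 was lowest in KO kidneys 1 and 4, at 23.5 and 27.7 CPM, the kidneys that were lowest for Slc14a2. It was highest in WT kidney 1, KO kidney 3 and KO kidney 2, at 63.5, 61.1 and 53.9 CPM, which were also the 3 highest for Slc14a2. The values of Calb1, Trpv5 and Fxyd4 fall into separate groups of kidneys, so no correlation is given. Those of Slc14a2 ran more evenly, from 1.09 to 83.0 CPM. The 3 other pairs examined were Slc12a1 with Umod and Kcnj10 with Kcnj16, which are described above, and Scnn1b with Scnn1g, whose lowest kidneys were KO kidney 1 and WT kidney 3, respectively.

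**Figure D4:**
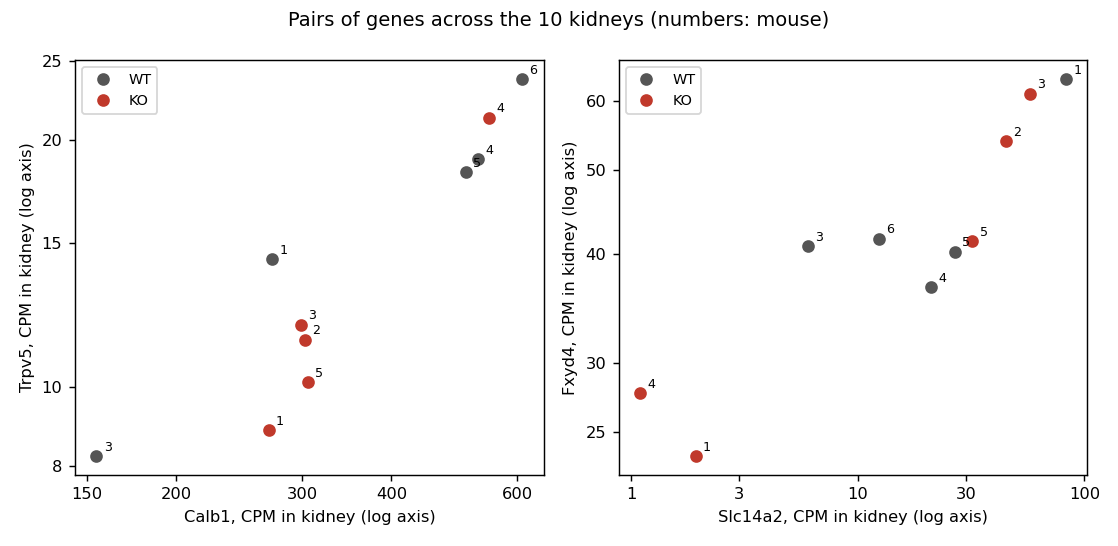
CPM of Calb1 against Trpv5 (left) and of Slc14a2 against Fxyd4 (right) in the 10 kidneys, on log axes, with the mouse number beside each point, WT in grey and KO in red. In the left panel 4 kidneys of both genotypes form the upper right group, and in the right panel KO kidneys 1 and 4 lie at the lower left.

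Liver has no nephron, and 11 of the 35 genes passed the filter there. Between genotypes 2 of the 11 passed edgeR's adjusted p: Wnk4 rose and Kcnj16 fell in KO liver, where 6.02% of all 14822 tested genes passed. Their promoters are shown because these are the genes of the list that passed, as the 250 bases before the first RefSeq start in build GRCm38.p6, plus strand. Capitals mark the hexamer AGGTCA of nuclear receptor sites, searched on both strands.
Wnk4, chr11:101260317-101260566: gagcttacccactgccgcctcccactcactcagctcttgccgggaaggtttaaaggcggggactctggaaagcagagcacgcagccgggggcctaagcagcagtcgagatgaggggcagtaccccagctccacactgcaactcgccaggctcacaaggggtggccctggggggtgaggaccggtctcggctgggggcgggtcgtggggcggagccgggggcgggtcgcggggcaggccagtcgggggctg
Kcnj16, chr11:110967783-110968032: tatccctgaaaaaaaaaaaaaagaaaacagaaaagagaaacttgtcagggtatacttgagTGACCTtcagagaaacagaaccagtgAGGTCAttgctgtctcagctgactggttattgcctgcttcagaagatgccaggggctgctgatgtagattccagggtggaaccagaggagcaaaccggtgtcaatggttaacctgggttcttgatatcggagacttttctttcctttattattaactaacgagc

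The Kcnj16 window holds the hexamer 2 times, once on each strand, and the Wnk4 window does not hold these letters. Of the 35 genes 27 matched the RefSeq table, with 39 windows, and 4 windows of 3 genes held the hexamer (Kcnj16, Scnn1b and Sgk1), where 14.02% of all 32851 windows did. The repeat of Lxr response elements, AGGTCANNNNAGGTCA, which contains the hexamer, was in 0 of the 39 windows and in 0.0152% of all windows. Kcnj16 has 4 starts in that table, of which the other 3 windows hold 0 hexamers, and counts per gene do not show which was used in liver. A match of letters describes the sequence and shows no binding.

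Wnk4 (ENSMUSG00000035112, mm10 chr11:101260567-101277409) stood at 5.35, 4.28, 5.45, 6.48 and 6.02 CPM in KO livers 1 to 5. In WT livers 1, 3, 4, 5 and 6 it stood at 2.64, 1.65, 3.66, 1.56 and 1.98 CPM. All KO livers lay above all WT livers, and the log2 fold change was 1.27 (SE 0.24, edgeR adjusted p = 0.00725). It passed in all 18 alternative settings, with values from 1.14 to 1.51. The level is low beside kidney: per kilobase it was 1.33 CPM in KO liver and 0.554 in WT liver, against 38.9 in WT kidney, each scaled within its tissue. An antisense gene that shares 1542 bases of the span of Wnk4 had 15 counts over all livers.

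Kcnj16 (ENSMUSG00000051497, mm10 chr11:110968033-111027968, with the hexamers above lying before its start) had 5, 1, 0, 1 and 0 counts in KO livers 1 to 5 and 11, 19, 18, 24 and 35 counts in WT livers 1, 3, 4, 5 and 6. The libraries did not overlap, at 0 to 0.187 CPM in KO and 0.427 to 1.01 CPM in WT. Kcnj16 met the filter on low counts in liver only through its WT libraries, where it was higher. The fitted log2 fold change was -3.67 (SE 0.61, edgeR adjusted p = 0.00329), from few counts, and it passed in 16 of 17 alternative settings. Its channel partner Kcnj10 stood at -0.99 (SE 0.42, edgeR adjusted p = 0.202), at 0.124 to 1.21 CPM in KO liver and 1.05 to 1.95 CPM in WT liver.

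The remaining genes of the list in liver did not pass. Atp6v0d2 stood at 4.46, 1.72, 2.07, 0.549 and 0.309 CPM in KO livers 1 to 5 and at 2.87 to 10.4 CPM in WT livers, with KO liver 1 within the WT range. Its log2 fold change was -1.67 (SE 0.55, edgeR adjusted p = 0.102), and it passed without KO liver 1 (-2.33, adjusted p = 0.0211) and with no filter on low counts. This pump subunit is also made by macrophages, whose 8 markers summed to 179 to 329 CPM in KO liver and 254 to 388 CPM in WT liver, with 8 of 8 negative. Of these Adgre1, which was named after its value was seen, fell by 1.26 (SE 0.26, edgeR adjusted p = 0.0126), and their part in the value of Atp6v0d2 was not tested. The other intercalated cell genes, Slc4a9 and Slc26a4, stood at -1.15 (SE 0.51) and -0.89 (SE 0.48), and Sgk1 at -0.48 (SE 0.21), with edgeR adjusted p values of 0.224, 0.324 and 0.226. Wnk1, Klhl3 and Scnn1a, the better measured genes of the list in liver, differed by 0.05 (SE 0.10), -0.16 (SE 0.19) and 0.02 (SE 0.14), and Egf by 0.34 (SE 0.39).

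Trpm6 had too few counts in liver for the filter. It had 2, 5, 3, 1 and 5 counts in KO livers 1 to 5 and 13, 30, 7, 18 and 19 counts in WT livers 1, 3, 4, 5 and 6, and the groups did not overlap. With no filter beyond 1 count it was among 4 genes of the list that passed, with Wnk4, Kcnj16 and Atp6v0d2. It also passed in limma-trend and without WT liver 4 or KO liver 1, 2, 3 or 5, and in the other settings it was not tested or did not pass.

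**Figure D5:**
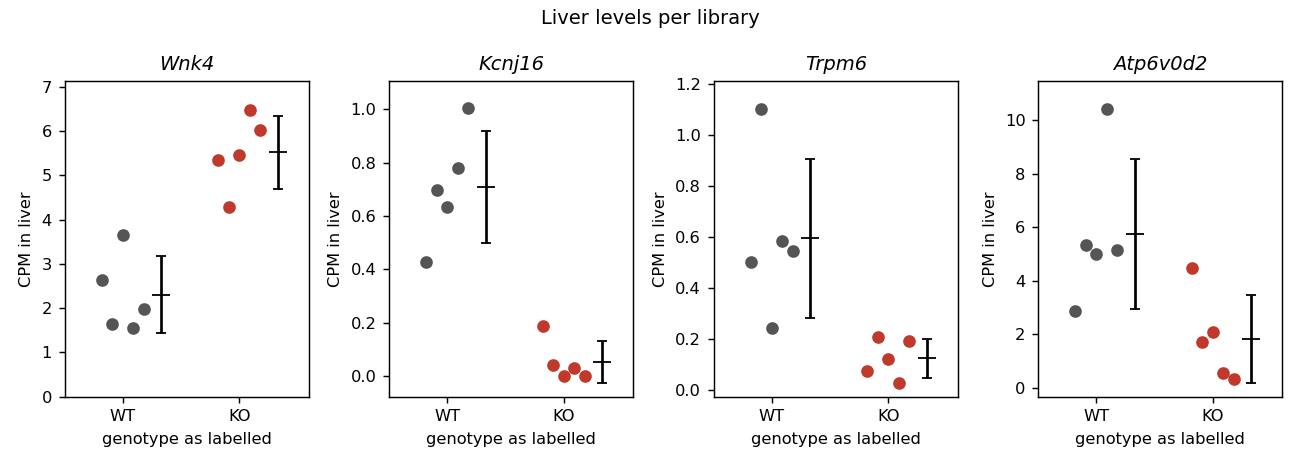
CPM per liver library (y axis) in WT and KO (x axis) for Wnk4, Kcnj16, Trpm6 and Atp6v0d2, with the mean and SD of 5 libraries as black marks. KO livers lie above WT livers for Wnk4 and below them for Kcnj16 and Trpm6, at levels near or under 1 CPM for the last 2, and Atp6v0d2 overlaps through KO liver 1 at 4.46 CPM.

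The genotype difference itself was compared between tissues in 1 fit of all 20 libraries. Of 34 tested genes 2 passed, Kcnj16 and Trpm6, where 1.51% of all 17606 tested genes did. Of these, Kcnj16 alone had passed the filter in both tissues, in liver only through its WT libraries. Trpm6 entered this fit through its kidney counts, with 1 to 30 counts per liver. Kcnj16 differed by 4.31 on the log2 scale (kidney minus liver, SE 0.74, edgeR adjusted p = 0.00239), from 0.59 in kidney and -3.67 in liver. It passed in all 27 alternative settings. Trpm6 differed by 2.12 (SE 0.51, edgeR adjusted p = 0.0354), with -0.18 in kidney, and passed in 16 of 27 settings; it did not pass with the mouse as a block (2.08, adjusted p = 0.0664), nor without WT kidney 4 or 5, WT liver 3 or 5, KO kidney 1, 3 or 4, or KO liver 1, 3 or 4, at values from 1.80 to 2.14. For Wnk4 the difference was -1.92 (SE 0.51, edgeR adjusted p = 0.0631), from -0.67 in kidney and 1.27 in liver, and without WT kidneys 1 and 3 it was -0.88. It passed in 5 of 27 settings: DESeq2 (-1.90, adjusted p = 0.0116), no filter, and without WT kidney 5, WT kidney 6 or WT liver 4.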

How the data were processed

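The authors deposited whole-number counts per gene, with gene positions and lengths, for 20 libraries, and a table of log2 FPKM values of 15454 genes, of which 13 are genes of the list. Per the labels' protocols, Trizol served for RNA from frozen tissue, and the NEBNext Ultra kit for libraries, with an input of 3 ug. The submitters' processing notes name HISAT2 2.0.5, StringTie, DESeq2 1.16.1 and build mm10, with no role or order. The counting tool and strand use are not given in the sources used here.

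The 35 genes, the other lists, the tests and the rule for named genes (all 35, and up to 4 called genes of each other list) were chosen with earlier results of these data known. Counts were fitted with edgeR 4.0.16 in R 4.3.3: filterByExpr with a minimum count of 10, TMM scaling, the quasi-likelihood test and Benjamini-Hochberg adjustment over all tested genes, called at an adjusted p under 0.05. Kidney and liver were fitted alone, the WT tissues together, and the difference between tissues in all 20 libraries, each with no block. The SE is the log2 fold change divided by the square root of the test's F statistic. Printed CPM values are scaled by TMM within a tissue. Alternatives were DESeq2 1.42.0, its size factors in edgeR, no TMM, no filter beyond 1 count, no mitochondrially encoded genes, limma 3.58.1 (trend) on the log2 FPKM values, blocks by title number or mouse, and leaving out each replicate. Fits without WT kidneys 1 and 3 and without KO livers 4 and 5 were chosen after seeing the data. The labels do not say how samples were collected beyond the title numbers, so p values measure the spread between these libraries. The fit was tested on simulated data. Floors cover counting error only. In 11 of the 35 genes the span overlaps that of a gene on the other strand.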

Additional observations from a re-analysis of the deposited data

Results flagged for a closer look

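In 94 groups of 5 libraries examined, 9 held 1 library far from the other 4. Independent groups of normal values would give about 1 in 20. Most groups here are genes of the same libraries, in CPM without logs, so the 9 cannot be weighed against that rate. In kidney, Calb1 stood at 547 CPM and Trpv5 at 21.3 CPM in KO kidney 4, against 269 to 305 CPM and 8.85 to 11.9 CPM in the other KO kidneys. WT kidney 3 was high in Wnk1, at 459.5 CPM against 297 to 341 CPM, and in Slc4a9, at 385 CPM against 98.9 to 148 CPM. WT kidney 1 was high in Fxyd4, at 63.5 CPM against 36.7 to 41.7 CPM, and in Slc14a2, at 83.0 CPM against 6.03 to 26.7 CPM. KO kidney 1 was low in Scnn1g, at 28.0 CPM against 36.5 to 39.9 CPM, and KO kidney 5 was high in Hsd11b2, at 103 CPM against 55.3 to 64.9 CPM. In liver, Kcnj16 stood at 0.187 CPM in KO liver 1 against 0 to 0.0419 CPM in the other KO livers. Mitochondrially encoded genes took 50.8% of counts in WT kidney 3 and 7.21% in WT kidney 1; their part in these values was not tested.

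The genotype difference in kidney minus that in liver passed edgeR's adjusted p for Kcnj16 (4.31, adjusted p = 0.00239) and for Trpm6 (2.12, adjusted p = 0.0354). Kcnj16 met the filter in liver only through its WT libraries. Trpm6 did not pass that filter, at 1 to 30 counts per liver, and its difference passed in 16 of 27 alternative settings.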

How the results depend on the processing

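In kidney 0 passed in edgeR, 1 in DESeq2, 1 with the number in the title as replicate block and 0 to 1 leaving out each replicate; the 1 was Slc12a1 each time (-1.42, adjusted p = 0.0443 with the block). In liver 2 passed, 4 with no filter beyond 1 count, 1 with the block (Kcnj16 was lost at -3.51, adjusted p = 0.0947) and 2 to 4 leaving out each replicate. For the difference between tissues 2 passed, 1 with the mouse as replicate block (Trpm6 was lost at 2.08, adjusted p = 0.0664) and 1 to 3 leaving out each replicate. Between WT tissues 33 or 34 passed throughout. Same-numbered WT and KO kidneys deviated together, counted as r over 0.1, in 3 of 4 pairs (r of 0.0686 to 0.216 over all 4). Same-numbered livers did so in 0 of 4, so the numbers were not taken to pair samples. Kidney and liver of 1 mouse did so in 3 of 10, with r from -0.189 to 0.448. Over all genes, kidney calls were 373 in edgeR, 1143 in DESeq2, 909 with the block and 99 without KO kidney 4. Liver calls over all genes were 288 higher and 605 lower, and 216 higher and 766 lower with no TMM; between WT tissues they were 4921 and 4033, and 8536 and 2166 with no TMM.

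The sign of single genes turned, mostly for values near 0 but also for Wnk4 and Slc14a2 in kidney, with 0 of these values passing; the cause was not tested. In kidney, Klhl3 turned to 0.022 in DESeq2, 0.022 with its size factors, 0.055 with no filter, 0.072 in limma-trend and 0.30 without WT kidneys 1 and 3; Umod to -0.0764 and Slc12a3 to -0.047 with no TMM; Slc26a4 to 0.0079 with no filter; Kcnj10 to 0.062 in limma-trend; with the replicate block Pvalb turned to 0.079, Calb1 to 0.061, Kcnj10 to 0.021, Scnn1g to 0.033 and Atp6v1g3 to 0.10; and without WT kidneys 1 and 3 Trpm6 turned to 0.12, Wnk4 to 0.37, Fxyd4 to 0.063 and Slc14a2 to 0.45. In liver, Wnk1 turned to -0.037 and Scnn1a to -0.064 with no TMM, and Klhl3 to 0.059 with the block. Scnn1a between WT tissues turned to -0.019 without WT kidneys 1 and 3. Leaving out each replicate, values ran from -0.24 to 0.069 for Atp6v1g3, -0.28 to 0.087 for Fxyd4, -0.20 to 0.085 for Kcnj1, -0.21 to 0.077 for Kcnj10, -0.14 to 0.20 for Klhl3, -0.28 to 0.15 for Ptger3, -0.22 to 0.088 for Pvalb, -0.16 to 0.044 for Scnn1g, -0.11 to 0.33 for Slc12a3, -0.58 to 0.75 for Slc14a2, -0.11 to 0.038 for Slc26a4, -0.26 to 0.052 for Trpm6 and -0.12 to 0.45 for Umod in kidney, and from -0.099 to 0.091 for Scnn1a and -0.0197 to 0.11 for Wnk1 in liver. Depth limits the liver values of Kcnj16 and Trpm6, which rest on 35 counts or fewer per library.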
